A study of Mus musculus with 35 samples.

Results

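Keratinocytes of the K5 lineage were isolated from the hind paw skin of mice given paclitaxel (PTX) or vehicle, and their messenger RNA was sequenced. The comparison covers 7 of the 35 libraries of the series: 4 of PTX-treated males and 3 of vehicle-treated males, taken by their sample titles, with all genes of the count tables. All mice of both groups carried K5-cre-ER and the tdTom reporter, so the controls share the inducible Cre and the reporter, on a strain labelled C57 and aged 8 to 16 weeks. PTX was injected intraperitoneally 2 times at 2 mg/kg, a day apart, and the skin was taken 6 days after the last injection, a schedule labelled PTX-short. Hind paw biopsies of both sides were made into single cells, and tdTomato+ cells (K5+/TdT) were taken, which are cells that used the K5 promoter when Cre was active, and their progeny. The labels do not describe the vehicle or how Cre was induced, and leave it unsaid whether the libraries are of different mice. All p-values rest on the spread among libraries, part or all of which can be technical. Vehicle-treated K5-cre-ER/tdTom females (4 libraries) entered the same fit and served to choose genes, and the other sorts of the series, CD45+ immune cells of wild-type mice and tdTomato+ fibroblasts of Col1a2-cre-ER/tdTom mice, gave reference levels.

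Paclitaxel binds microtubules and keeps them from shortening, which stops dividing cells at the spindle, and it is known in the clinic for painful neuropathy of the hands and feet. Epidermal keratinocytes divide in the basal layer, where they make keratins 5 and 14 and sit on the basement membrane. On leaving it they switch to keratins 1 and 10, join by many desmosomes, and end as the cornified layer that sensory nerve endings lie beneath.

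The 7 libraries held 6518070 to 11115207 counts in genes with vehicle and 7828419 to 12055718 with PTX, and 8082 to 10858 and 10231 to 11699 genes had a count. Of all reads, 22.9 to 24.3% lay in genes with vehicle and 20.5 to 27.2% with PTX, and 48.3 to 54.2% had no unique place in the genome and were not counted. Levels of genes with near-identical relatives, such as Hspa1a, the tubulins, ribosomal proteins, MHC class I and the keratins Krt6a, Krt16 and Krt17, are uncertain for that reason. Replicates were far apart: the Spearman correlation between libraries over genes was 0.43 to 0.54 within vehicle males and 0.43 to 0.53 within PTX males, against 0.33 to 0.44 between the groups. The common biological coefficient of variation, the spread between replicates relative to the level, was 1.71. Many genes of middle abundance were near 0 in 1 library and abundant in the next.

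The sort markers were present in every library, but the PTX libraries held less RNA of keratinocyte genes and more RNA of genes of other skin cells. To measure this with genes that were not chosen on the compared libraries, restricted genes were taken from vehicle females: at least 5 CPM (counts scaled to the library's total) in 1 sort and at least 8 times the level of both other sorts. There were 649 keratinocyte-restricted, 665 fibroblast-restricted and 803 immune-restricted genes. The keratinocyte-restricted genes took 13.9, 14.1 and 14.0% of gene counts in the vehicle males and 4.86, 4.26, 5.81 and 5.93% in the PTX males. The 2 groups did not overlap, and the mean was 13.99 ± 0.0641% (SD, n = 3) with vehicle and 5.22 ± 0.798% (n = 4) with PTX, a ratio of 0.373. The fibroblast-restricted share was 0.689, 0.824 and 0.687% with vehicle and 8.84, 8.90, 7.70 and 7.61% with PTX. The immune-restricted share was 0.334, 0.308 and 0.450% with vehicle and 2.69, 3.45, 3.02 and 3.67% with PTX. Every PTX library was thus above every vehicle library in RNA of both other sorts and below it in keratinocyte RNA. Each of these 3 differences had p = 0.0571 in the two-sided exact permutation test, the smallest that 3 against 4 libraries allow, or 0.0857 after Benjamini-Hochberg adjustment over 6 such values. For scale, fibroblast-restricted genes took 29.8 to 33.2% of counts in the sorted fibroblasts of vehicle males, and immune-restricted genes took 13.6 to 18.1% in the sorted immune cells of vehicle males. In such bulk libraries fewer cells of a type and less RNA per cell cannot be told apart.

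**Figure D1:**
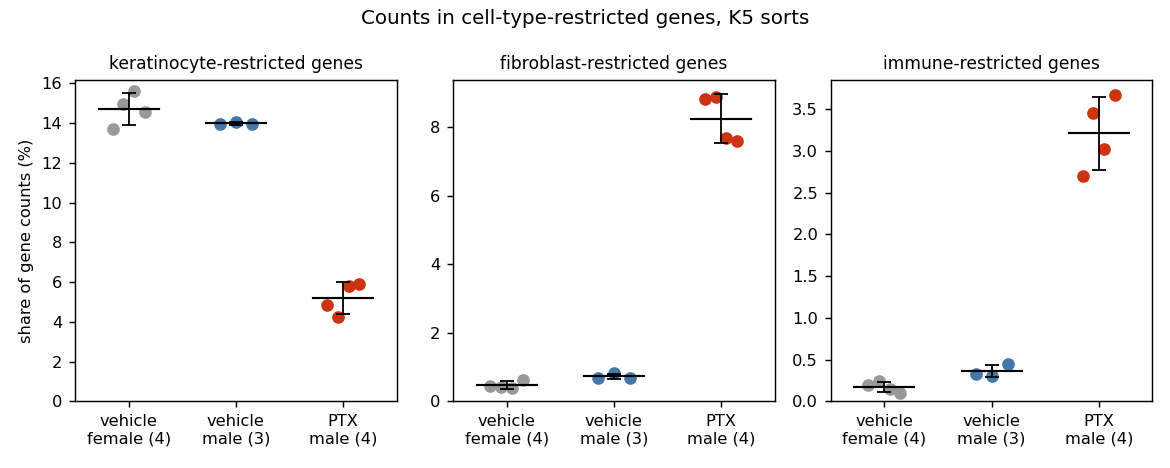
Share of gene counts (%) in keratinocyte-, fibroblast- and immune-restricted genes, 1 point per K5-sorted library, with mean and SD (vehicle females n = 4, vehicle males n = 3, PTX males n = 4). The PTX males sit between 4.26 and 5.93% for keratinocyte-restricted genes, below all vehicle libraries, and above all of them in the other 2 panels.

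Over all genes, PTX and vehicle males were compared with edgeR's quasi-likelihood test, in 1 fit with the vehicle females. Of 10939 genes tested, 159 were called (1.45%), of which 126 rose (1.15%) and 33 fell (0.302%), at a Benjamini-Hochberg adjusted p under 0.05, and 1619 had an unadjusted p under 0.05. The 33 genes that fell were mostly genes of keratinocytes: 23 (69.7%) were keratinocyte-restricted, against 5.84% of the genes tested. Those that rose included no keratinocyte-restricted gene, while 46 (36.5%) were fibroblast-restricted and 26 (20.6%) immune-restricted, against 3.04% and 2.75% of the genes tested. A restricted class is not a cell type: of the 13 endothelial genes tested, the rule puts 6 in the immune class, of which Vwf, Egfl7, Cldn5 and Kdr rose, and Tek in the fibroblast class. Among the 639 keratinocyte-restricted genes tested, 502 had a log2 fold change below 0 and the median was -1.23 (-1.21 with genes at 0 in a group at their bound), beside 0.07 over all genes. Medians were 8.47 for 332 fibroblast-restricted genes, of which 310 were above 0, and 6.46 for 301 immune-restricted genes, of which 277 were above 0. With genes at 0 at their bound, computed from 3 counts per library, these 2 medians were 7.18 and 6.39. The groups did not overlap for 1001 genes higher with PTX (9.15% of those tested) and 469 lower (4.29%). Of the keratinocyte-restricted genes, 116 did not overlap and were lower, and 10 were higher. For the fibroblast- and immune-restricted genes, 178 and 120 were higher without overlap and none was lower. The low-count filter was run on the K5 sorts, so a gene near 0 in vehicle libraries was tested only where PTX libraries had it. Tested were 332 of 665 fibroblast-restricted and 301 of 803 immune-restricted genes, beside 639 of 649 keratinocyte-restricted ones. The counts above 0, medians and shares of calls of these 2 classes are thus in part set by the filter. So are those of lists below with many members near 0 in vehicle libraries. These include lists of other cell types, of cytokines, of interferon genes and of neurotrophic and sensory genes.

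These values are relative to all RNA in a library, so a keratinocyte gene is lower in them also where it is other RNA that is higher. A second scaling, computed over the keratinocyte-restricted genes alone, sets their median change to 0.00 and compares each gene with the other keratinocyte genes. It moved every gene up by about 1.21 on the log2 scale, so that the median over all genes was 1.28. RNA that other cells add to a gene they also express counts as a rise under this scaling. A higher call thus does not place the change in keratinocytes. Under it 329 genes were higher (3.01%) and 5 lower (0.0457%), so that 98.5% of calls were higher in place of 79.3%. Of the 5, Krt10, Perp, Anxa8 and Cst6 were keratinocyte-restricted and Ccnd2, named after its values were seen, was not. With vehicle females in place of males and the same scaling, Krt10 passed (-1.73, adjusted p = 0.0305), and Perp (-0.73, 0.0954), Anxa8 (-0.72, 0.277), Cst6 (-1.91, 0.271) and Ccnd2 (-0.44, 0.601) did not. Keratinocyte-scaled against males, groups did not overlap for 1883 genes higher (17.2%) and 96 lower (0.878%), among them 34 and 28 keratinocyte-restricted genes. Values under both scalings are given below, the first as scaled over all genes and the second as keratinocyte-scaled, and CPM always refers to the first.

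**Figure D2:**
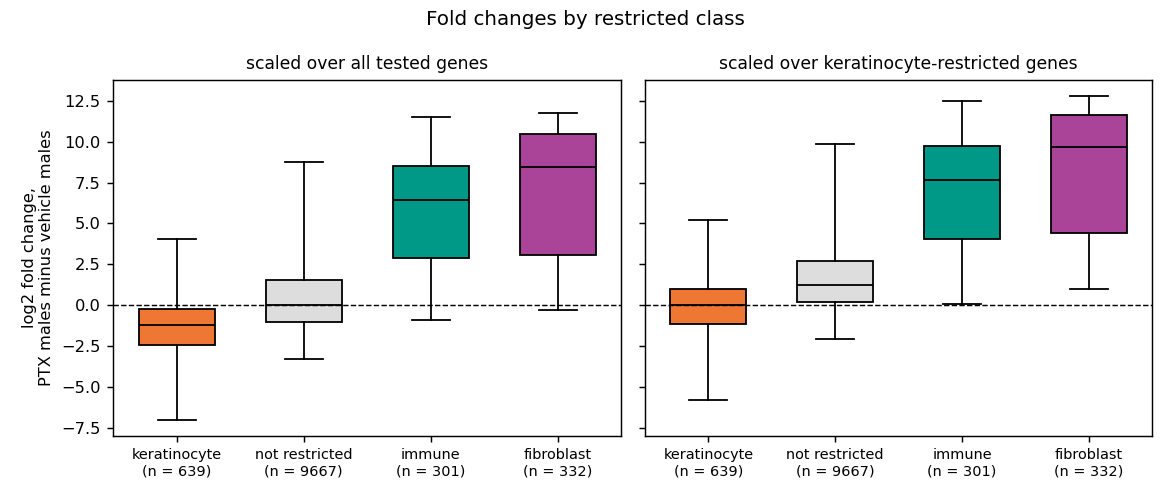
Log2 fold change, PTX males minus vehicle males, of tested genes by restricted class, under the scaling over all genes (left) and over keratinocyte-restricted genes (right). Boxes span the quartiles with the median, and whiskers the 5th to 95th percentiles. Keratinocyte-restricted genes have a median of -1.23 on the left and 0.00 on the right, where genes outside the 3 classes have a median of 1.25, and the other 2 classes lie above them in both panels.

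Calls among keratinocyte-restricted genes lay mostly in the abundant ones, while the median log2 fold change was below 0 in each abundance range. The genes were ranked by mean CPM in vehicle females, which are outside the comparison, a ranking added after seeing the data. Of the first 50 genes (532 to 12570 CPM), 48 were below 0, with a median of -1.46, and 18 fell. Among the next 50, 46 were below 0 (median -1.03) and 2 fell, and of the 100 after them 89 were below 0 (median -1.33) and 3 fell. None fell in the lower ranks, where 160 of 200 and then 159 of 239 genes were below 0, with medians of -1.10 and -1.26. Ranking in the vehicle males, which are a side of the fold change, gave medians from -1.82 for the first 50 to -0.08 beyond rank 400, a gradient not seen with the ranking in females.

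Basal layer genes led in abundance. Krt5, the keratin that names the Cre driver, was at 8093, 4748 and 7689 CPM in the 3 vehicle males and 1193, 1884, 2463 and 4196 CPM in the 4 PTX males. All PTX libraries were below all vehicle libraries, and Krt5 fell by 1.49 ± 0.32 (SE) on the log2 scale (edgeR adjusted p = 0.0200). The call was lost in 5 of 7 fits without 1 library, with adjusted p up to 0.0965 without PTX male 2. Krt14, the partner with which keratin 5 forms filaments, was at 15205, 12744 and 12427 CPM with vehicle and 1598, 2468, 3647 and 6396 with PTX (-1.93 ± 0.32, adjusted p = 0.00314). Krt15, a keratin of basal and hair bulge cells, was at 2012, 2030.3 and 1811 against 258, 337, 363 and 472 CPM (-2.45 ± 0.35, adjusted p = 0.000664). The 3 keratins were each lower in all 4 PTX males than in any vehicle male, and the PTX values of Krt5 and Krt14 had a range of over 3-fold between libraries. Col17a1, the hemidesmosomal collagen that anchors basal cells, was at 4220.3, 2460 and 2888 against 245, 969, 1040.1 and 1126 CPM (-1.92 ± 0.43, adjusted p = 0.0248), and lost its call in 4 of 7 fits without 1 library, with adjusted p up to 0.120 without vehicle male 1. Keratinocyte-scaled, none of these 4 passed: the values were -0.31 (adjusted p = 0.798) for Krt5, -0.73 (adjusted p = 0.208) for Krt14, -1.21 (adjusted p = 0.0889) for Krt15 and -0.71 (adjusted p = 0.521) for Col17a1. Of 13 basal genes tested, 4 fell and none rose, with a median of -1.49, or -0.31 keratinocyte-scaled. Trp63, which encodes the transcription factor p63 of basal cells, was at 642, 686 and 353 against 165, 50.9, 392 and 334 CPM, with overlapping groups (-1.25 ± 0.58, adjusted p = 0.322).

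Of the spinous layer genes, Krt10, Krt1 and Krtdap fell, and of these Krt10 alone also fell keratinocyte-scaled. Krt10, the keratin made when cells leave the basal layer, was at 959.6, 1709 and 1751 CPM with vehicle and 97.6, 187, 158 and 61.5 CPM with PTX. All PTX libraries were far below all vehicle libraries, and Krt10 fell by 3.55 ± 0.42 (edgeR adjusted p = 0.000118). Keratinocyte-scaled it still fell, by 2.22 ± 0.47 (adjusted p = 0.0119), and passed in 6 of 7 fits without 1 library, the exception being the fit without vehicle male 3 (adjusted p = 0.0813). Krt1, its filament partner, was at 961, 1235 and 1354 against 99.9, 381, 244 and 424 CPM (-2.04 ± 0.43, adjusted p = 0.0175), losing its call in 2 of 7 fits without 1 library, with adjusted p up to 0.1003 without vehicle male 3. Keratinocyte-scaled, Krt1 was at -0.76 (adjusted p = 0.480). Krtdap, a secreted protein of differentiating keratinocytes, was at 1721, 1897 and 1751 against 88.4, 263, 250.3 and 490.3 CPM (-2.71 ± 0.44, adjusted p = 0.00195, keratinocyte-scaled -1.48 (adjusted p = 0.0860)). Both were lower in every PTX library than in any vehicle library. Of 10 spinous genes tested, 3 fell and none rose, and 7 did not overlap (median -1.76, keratinocyte-scaled -0.45).

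A ratio within each library does not depend on the scaling. The log2 ratio of Krt10 to Krt5, added after seeing the data, was -3.08, -1.47 and -2.13 in the vehicle males and -3.60, -3.33, -3.96 and -6.07 in the PTX males. The groups did not overlap and the difference was -2.01, with two-sided exact permutation p = 0.0571, the smallest possible here (0.0857 adjusted over 6 values). With both pairs summed, Krt1 and Krt10 over Krt5 and Krt14, the ratio was -2.96 ± 0.562 (SD, n = 3) with vehicle and -3.78 ± 0.627 (n = 4) with PTX. That difference, -0.82, did not pass (exact permutation p = 0.114, adjusted 0.137), and the groups overlapped. The mean log2(CPM + 1) over the tested spinous genes minus that over the basal genes ran from -2.01 to -0.11 with vehicle and from -2.65 to -1.11 with PTX. The groups were thus apart for Krt10 against Krt5 and overlapped for the keratin pairs and for the lists.

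The granular and cornified layers were poorly covered in these libraries: of 29 genes found only 6 were tested, and 20 were at 0 in all vehicle males. Cst6, which encodes the protease inhibitor cystatin M/E of the upper epidermis, was at 269, 4338 and 1525 CPM with vehicle and 85.2, 38.3, 82.0 and 0.569 with PTX. The vehicle libraries differed widely among themselves, all PTX libraries were below them, and Cst6 fell (-5.31 ± 1.08, adjusted p = 0.0177, keratinocyte-scaled -3.91 (adjusted p = 0.0382)). Its call was lost in 4 of 7 fits without 1 library, with adjusted p up to 0.0859 without PTX male 2, and the keratinocyte-scaled one in 5 of 7 (up to 0.23 without vehicle male 2). The list median was -3.88, or -2.55 keratinocyte-scaled, over 6 genes.

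**Figure D3:**
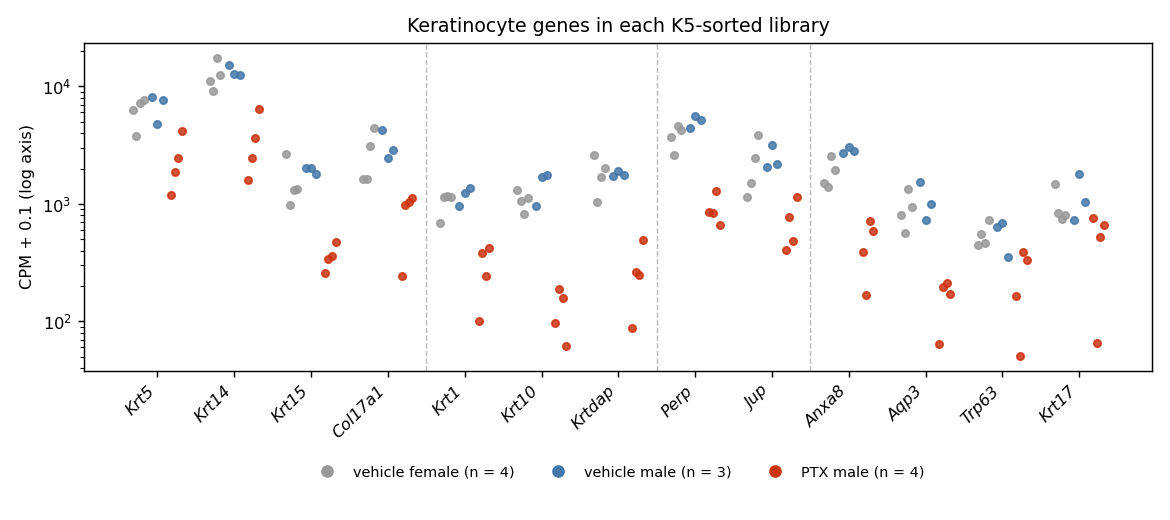
CPM (log axis, 0.1 added) of keratinocyte genes, 1 point per library of vehicle females (n = 4), vehicle males (n = 3) and PTX males (n = 4); dashed lines part basal, spinous, desmosomal and other genes. All PTX points of Krt5, Krt14, Krt15, Col17a1, Krt1, Krt10, Krtdap, Perp, Jup, Anxa8 and Aqp3 lie under all vehicle male points, while those of Trp63 and Krt17 overlap them.

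Of the junction genes, Perp and Jup, both of desmosomes, fell. Perp, a membrane protein of desmosomes that is also a p53 target, was at 4395, 5605 and 5156 CPM with vehicle and 847, 836, 1275 and 667 with PTX, with no overlap. It fell by 2.48 ± 0.25 (edgeR adjusted p = 1.27e-05), and by 1.22 ± 0.26 keratinocyte-scaled (adjusted p = 0.0122). The keratinocyte-scaled call was kept in 5 of 7 fits without 1 library, with adjusted p up to 0.0616 without vehicle male 3. Jup, the plakoglobin gene, was at 2062, 3157 and 2194 against 406, 774, 479.6 and 1155 CPM (-1.81 ± 0.40, adjusted p = 0.0228), lost its call in 4 of 7 fits without 1 library, with adjusted p up to 0.122 without vehicle male 2, and was at -0.53 (adjusted p = 0.649) keratinocyte-scaled. Dsg3, the adhesion molecule desmoglein 3, was at 328, 1158 and 235 against 39.4, 43.4, 148 and 8.40 CPM, lower in every PTX library but not past the threshold (-3.26 ± 0.84, adjusted p = 0.0649). Of 13 desmosome genes tested, 2 fell, 6 did not overlap and were lower, and none rose (median -1.81, keratinocyte-scaled -0.53). Of 13 genes of adherens, tight and gap junctions none passed (median -0.30, keratinocyte-scaled 1.10). Gja1, the gap junction gene connexin 43, was at 779.6, 1034 and 940.2 CPM with vehicle and 1099.5, 1258, 1335 and 1377 with PTX, 0.47 (adjusted p = 0.814) scaled over all genes and 1.73 (adjusted p = 0.0257) keratinocyte-scaled, where 3 of 7 fits without 1 library lost the call (up to 0.105 without vehicle male 3). In plain CPM, Gja1 was at 917.5 in fibroblasts and 868.5 in the K5 sort of vehicle males, so both sorts express it. Of 18 hemidesmosome and basement membrane genes tested, Col17a1 fell, none rose, and 4 were higher without overlap (median 0.62, keratinocyte-scaled 1.84). Among these 4 was Hspg2, the basement membrane proteoglycan perlecan, at 86.2, 118 and 16.2 against 286, 143, 389.8 and 575 CPM.

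The 10 largest falls under the naming rule were Fgfbp3, Capns2, Cst6, Defb6, Gnai1, Krt10, Them5, Fam25c, Aqp3 and Krtdap, and all but Fgfbp3 and Gnai1 were keratinocyte-restricted. Aqp3, the water and glycerol channel of basal keratinocytes, was at 1532, 726 and 1006 CPM with vehicle and 64.3, 195, 213 and 172 with PTX (-2.76 ± 0.47, adjusted p = 0.00296). Fam25c was at 597, 789.7 and 568 against 39.8, 89.3, 129 and 113 CPM (-2.81 ± 0.50, adjusted p = 0.00462). Defb6, a beta-defensin gene, was at 174, 2353 and 446 against 55.7, 34.3, 33.0 and 0.854 CPM (-5.00 ± 0.99, adjusted p = 0.0100). All PTX libraries were below all vehicle libraries for these 3, but vehicle male 2 was far above its group for Defb6, whose adjusted p was 0.146 without it. Keratinocyte-scaled, the 3 had adjusted p from 0.0647 to 0.146. Fgfbp3, which encodes a carrier of fibroblast growth factors, was at 59.4, 398 and 35.5 CPM with vehicle and had 1 count over the 4 PTX libraries, 4419 times fewer after scaling, with a 95% counting interval from 793 to 174602. Its call was lost in 5 of 7 fits without 1 library, with adjusted p up to 0.196 without vehicle male 2. Calls of Capns2, Gnai1 and Them5 were lost in 5, 7 and 6 of 7 such fits, with adjusted p up to 0.278 without vehicle male 2, 0.151 without vehicle male 1 and 0.165 without vehicle male 3.

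Anxa8, an annexin gene abundant in stratified epithelia, was at 2710.4, 3074 and 2809 CPM with vehicle and 387, 169, 709 and 583 with PTX (-2.63 ± 0.38, adjusted p = 0.000685). Keratinocyte-scaled it fell as well (-1.43 ± 0.37, adjusted p = 0.0395), but only 1 of 7 fits without 1 library kept that call (up to 0.132 without vehicle male 3). Ccnd2, which encodes the G1 cyclin D2, was at 1646, 1422 and 1985 against 289, 249, 273 and 276 CPM (-2.63 ± 0.32, adjusted p = 0.000164). Its PTX libraries lay within a narrow band, all under the vehicle ones, and keratinocyte-scaled it was at -1.39 ± 0.36, adjusted p = 0.0425, kept in 2 of 7 such fits (up to 0.239 without vehicle male 3). Lgals7, the epithelial galectin 7, and Apoe, an apolipoprotein gene, were chosen like Ccnd2 after their values were seen. Lgals7 was at 3561, 3707 and 4520.4 against 787, 1171, 1365 and 1209 CPM (-1.79 ± 0.25, adjusted p = 0.000625, keratinocyte-scaled -0.54 (adjusted p = 0.316)). Apoe was at 12115, 19743 and 15167 against 8319, 4535, 7133 and 5864 CPM (-1.28 ± 0.21, adjusted p = 0.00195, keratinocyte-scaled -0.01 (adjusted p = 0.993)). Both fell scaled over all genes and did not pass keratinocyte-scaled.

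No keratinocyte-restricted gene rose scaled over all genes. The 5 with the lowest p above 0 were Rnf39, Camsap1, Zmat3, Lmo7 and Gins1, with adjusted p from 0.205 to 0.233. Camsap1, which encodes a protein that binds the minus ends of microtubules, was at 0.438, 0 and 0 CPM with vehicle and 128, 4.78, 1.84 and 78.8 with PTX, with 44.8 ± 13.9 CPM (SD, n = 4) in vehicle females. PTX males 1 and 4 were above the females and PTX males 2 and 3 below them. Lars2, a mitochondrial leucyl-tRNA synthetase gene named after its values were seen, was the 1 keratinocyte-restricted gene called higher when keratinocyte-scaled (1.26 ± 0.32, adjusted p = 0.0386), and it lost that call in all 7 fits without 1 library (up to 0.171 without vehicle male 3). Its CPM were 1832, 2472 and 1732 with vehicle and 1797, 1842, 1732 and 2682 with PTX.

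Keratins of wounded or stressed epidermis were not called. Krt17 was at 736, 1781 and 1044 CPM with vehicle and 752, 65.7, 526 and 660.1 with PTX (-1.24 ± 0.55, adjusted p = 0.294), a log2 fold change of 0.0052 (adjusted p = 0.999) keratinocyte-scaled, and Krt6a, named after its values were seen, at 129, 299.9 and 246 against 39.0, 2.33, 51.04 and 77.1 (-2.41 ± 1.43, adjusted p = 0.512). Krt16, chosen likewise, was at 29.7, 1.81 and 93.2 against 0.194, 44.6, 57.9 and 60.2 CPM. Krt6a was lower in every PTX library, and the other 2 overlapped. The log2 ratio of Krt16 and Krt17 over Krt5 and Krt14 differed by 0.51 (exact permutation p = 0.686, the same after adjustment). Of 13 genes of the stress keratin and wound list none passed (median 0.64, keratinocyte-scaled 1.98). Among 12 epidermal lipid genes, 19 keratinocyte transcription factor and Notch genes and 15 hair follicle and gland genes none passed either, with medians of -0.50, -1.19 and 1.06, or 0.71, 0.29 and 2.05 keratinocyte-scaled. Notch1, the receptor that drives exit from the basal layer, was at 1054, 759 and 381 against 786, 613, 420.3 and 1191 CPM, with overlapping groups. Scd1, a fatty acid desaturase gene of sebocytes and epidermis, was at 1499, 1912 and 2055 against 898, 1488, 1392 and 627 CPM, lower in each PTX library but not past the threshold (-0.73 ± 0.39, adjusted p = 0.426).

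Genes of the ribosome and of mitochondrial respiration were mostly below 0 relative to all RNA, with 1 call in each list. Of 30 cytosolic ribosomal protein genes tested, 27 were below 0 and 17 did not overlap and were lower, with 1 that fell. Rpl8, a protein of the large ribosomal subunit, was at 3052, 3721 and 2773 CPM with vehicle and 1573, 1618, 1614 and 1076 with PTX (-1.11 ± 0.27, adjusted p = 0.0445), and lost its call in 7 of 7 fits without 1 library, with adjusted p up to 0.210 without vehicle male 2. Of 25 oxidative phosphorylation genes 22 were below 0 and 1 fell. Atp5b, a subunit of ATP synthase, was at 3137, 4667 and 3574 against 2523, 1253, 1558 and 1477 CPM (-1.16 ± 0.27, adjusted p = 0.0309), and lost its call in 6 of 7 fits without 1 library, with adjusted p up to 0.199 without vehicle male 2. The list medians were -0.68 and -0.65, and keratinocyte-scaled they turned to 0.55 and 0.59, where the median of all genes was 1.28. Both lists thus lay below all genes and above the keratinocyte-restricted genes under either scaling, and keratinocyte-scaled Rpl8 and Atp5b were at 0.17 (adjusted p = 0.888) and 0.12 (adjusted p = 0.917). In plain CPM, Rpl8 was at 3014 in the K5 sort, 249 in fibroblasts and 593 in immune cells of vehicle males. For Atp5b these levels were 3570, 582.5 and 1126. The part of the lower share of keratinocyte RNA in these falls was not tested.

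Cytokine genes gave some of the largest differences. Il6, the inflammatory cytokine interleukin 6, was at 0.350, 0.361 and 0.557 CPM in the vehicle males and 730.1, 422, 430.2 and 1849.8 CPM in the PTX males. Ccl2, which attracts monocytes, was at 0.350, 0.542 and 0.186 against 294, 639, 207 and 489 CPM. Csf3, the granulocyte growth factor G-CSF, had no count with vehicle and 29.5, 74.6, 206 and 329 CPM with PTX. All 3 were under 1 CPM in each vehicle library and above 29 CPM in each PTX library. Il6 rose by 10.93 ± 1.35, adjusted p = 0.000164 (edgeR) and Ccl2 by 10.12 ± 1.60, adjusted p = 0.00179, both kept in all 7 fits without 1 library. Csf3 was at least 443-fold higher, from a floor of 3 counts per library (adjusted p = 0.0302, lost in 6 of 7 fits without 1 library, with adjusted p up to 0.130 without vehicle male 3). Of 29 genes of the keratinocyte cytokine and chemokine list 17 were tested, and 9 of the 29 had no count in vehicle males. Of the 17 tested, Il6, Ccl2 and Csf3 rose, 8 were higher without overlap, and the median was 4.14 (5.29 keratinocyte-scaled). The low-count filter in part sets these list values. Cxcl1, a neutrophil attractant, was at 193, 1.08 and 0.557 against 541, 2368, 837 and 848 CPM and did not pass (4.14 ± 1.71, adjusted p = 0.276), while Cxcl14, a chemokine that epidermis makes at rest, was at 212, 288 and 495 against 599.5, 250, 280.2 and 215 CPM. Ccl27a, the chemokine of keratinocytes that attracts T cells, was at 6.13, 32.7 and 18.5 against 0, 0.259, 0 and 0 CPM (adjusted p = 0.214).

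The other sorts give a scale for these cytokines. In plain CPM, the mean level of Il6 was 497 in fibroblasts of vehicle males, 718 in fibroblasts of PTX males and 796 in the K5 sort of PTX males. For Ccl2 the 3 values were 1659, 3687 and 374. Csf3 was at 151 CPM in the K5 sort of PTX males, 26.8 in their immune cells and 0.0688 in their fibroblasts. By mean, Il6 and Csf3 were thus higher in the K5 sort of PTX males than in either other sort, and Ccl2 was lower. Libraries overlapped for Il6, at 368 to 1660 CPM in that sort and 420 to 1212 in fibroblasts of PTX males. The 1660 was that of PTX male 4. For Csf3 they were at 28.8 to 295 CPM and, in immune cells of PTX males, 0 to 48.6. For Ccl2 the K5 sort of PTX males (215 to 558 CPM) lay below both other sorts of PTX males (from 683 CPM). These are means of separate sorts and were not tested against each other. The treatment is labelled PTX-short for the K5 sort and PTX for the other sorts, though the same schedule is given for all.

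The upstream sequences of 3 genes that rose in these libraries are shown, picked because they hold a motif of AP-1, whose subunit genes rose, or of NF-kB, whose inhibitor gene rose. Each is the 300 bases from 250 before to 50 after the RefSeq start, read 5' to 3' on the gene's strand in GRCm38.p6, a later build than the mm9 of the counts. The windows are chr5:30012864-30013163 (plus strand) for Il6, chr12:55492598-55492897 (minus strand) for Nfkbia and chr1:164047984-164048283 (plus strand) for Sele, a vessel adhesion molecule described below.
Il6: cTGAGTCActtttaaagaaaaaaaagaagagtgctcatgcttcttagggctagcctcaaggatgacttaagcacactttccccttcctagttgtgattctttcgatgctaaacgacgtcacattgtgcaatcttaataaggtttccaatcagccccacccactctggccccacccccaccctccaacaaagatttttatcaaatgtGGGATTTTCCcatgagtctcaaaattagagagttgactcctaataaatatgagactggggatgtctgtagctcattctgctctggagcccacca
Nfkbia: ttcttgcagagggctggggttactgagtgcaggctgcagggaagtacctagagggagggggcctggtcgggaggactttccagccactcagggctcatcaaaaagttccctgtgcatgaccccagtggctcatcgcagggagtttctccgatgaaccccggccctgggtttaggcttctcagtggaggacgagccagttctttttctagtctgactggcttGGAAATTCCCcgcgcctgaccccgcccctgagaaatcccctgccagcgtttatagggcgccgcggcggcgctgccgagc
Sele: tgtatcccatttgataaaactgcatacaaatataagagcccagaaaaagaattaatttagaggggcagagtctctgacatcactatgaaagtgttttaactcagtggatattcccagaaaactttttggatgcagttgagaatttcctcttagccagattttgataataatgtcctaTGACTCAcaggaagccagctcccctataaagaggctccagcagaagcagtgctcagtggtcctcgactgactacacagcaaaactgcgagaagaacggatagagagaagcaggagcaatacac
Capitals mark matches, on either strand, to TGANTCA, the AP-1 motif, or to an NF-kB motif of GGG, any pair of bases and TTTCC. Il6 holds 1 of each, starting 249 and 44 bases before its start site, Nfkbia 1 NF-kB match 29 bases before, and Sele 1 AP-1 match 73 bases before. Of 32851 promoter windows of this length, 7.81% hold the AP-1 letters and 1.63% the NF-kB letters. Of the other windows searched, Selp holds an AP-1 match and B2m an NF-kB match, both genes that rose, and Krt14, which fell, an NF-kB match. The windows of Fos, Jun, Junb and Zfp36, which rose, and of Krt5, Krt10 and Anxa8, which fell, hold neither. A match describes letters, not binding.

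Immediate early genes, which cells switch on within minutes of a stimulus or of handling, were mostly above 0 with PTX, and 5 rose. Fos, a subunit of AP-1, was at 568, 936 and 112 CPM with vehicle and 4221, 3389.6, 2583 and 5127 with PTX. Zfp36, which encodes an RNA-binding protein that shortens the life of cytokine messages, was at 165, 487 and 62.7 against 2001, 1523, 965 and 2607 CPM. Junb and Jun, the partners of Fos, were at 378, 483 and 341 against 1943, 2538, 1394 and 2238 and at 281, 189 and 293 against 1921, 1498, 673 and 1189.7 CPM. None of these 4 overlapped between the groups. Fos rose by 2.83 ± 0.51, adjusted p = 0.00470 (edgeR) in all 7 fits without 1 library. Zfp36 rose by 2.90 ± 0.60, adjusted p = 0.0138, lost in 3 of 7 fits without 1 library, with adjusted p up to 0.0722 without vehicle male 1, Junb by 2.34 ± 0.50, adjusted p = 0.0175, lost in 5 of 7 fits without 1 library, with adjusted p up to 0.0918 without vehicle male 3, and Jun by 2.38 ± 0.52, adjusted p = 0.0212, lost in 5 of 7 fits without 1 library, with adjusted p up to 0.112 without PTX male 1. Keratinocyte-scaled, all 4 rose with adjusted p from 0.000114 to 0.000520. Of 23 immediate early genes 5 rose, 22 were above 0 and 15 did not overlap (median 2.38, keratinocyte-scaled 3.63 with 8 called). The fifth was Ier5, named after its values were seen, at 0.263, 0.361 and 0.186 against 61.4, 202, 280.4 and 386 CPM, a call lost in 6 of 7 fits without 1 library, with adjusted p up to 0.160 without vehicle male 3. Atf3, a stress-response factor named after its values were seen, was at 89.0, 10.7 and 1.30 against 1089, 1402, 991 and 1647 CPM, without overlap, and did not pass (5.25 ± 1.64, adjusted p = 0.181). Egr1, chosen likewise, was at 741, 404 and 359 against 1815, 939, 630.4 and 1900 CPM, overlapping, with 1.40 (adjusted p = 0.216) and 2.59 (adjusted p = 0.00982) keratinocyte-scaled. Myc, a growth factor-induced gene of the same list, was at 586, 0.180 and 479.7 against 335, 339, 380.4 and 422 CPM.

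These genes are more abundant in the other sorts also without PTX. Fos was at 499 plain CPM in the K5 sort of vehicle males, 12350 in their fibroblasts, 4060 in their immune cells and 3587 in the K5 sort of PTX males. For Junb the 4 values were 379, 3511, 2992 and 1890, and for Zfp36 216, 5668, 2241 and 1654. The K5 sort of PTX males lay between the K5 sort and the fibroblasts of vehicle males for all 3. The part of RNA from other cells in these rises was not tested.

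Of the NF-kB genes, Nfkbia, which encodes the inhibitor IkB-alpha and is itself induced by NF-kB, was at 577, 489 and 411 CPM with vehicle and 2424, 2465, 2386 and 4073 with PTX. It rose without overlap (2.53 ± 0.58, adjusted p = 0.0304), a call lost in 7 of 7 fits without 1 library, with adjusted p up to 0.132 without vehicle male 2, and keratinocyte-scaled at 3.75 ± 0.62, adjusted p = 0.00137. Tnfaip3, the feedback inhibitor A20, was at 53.5, 0.722 and 0.371 against 327, 934, 689.6 and 825 CPM and Icam1, an adhesion molecule, at 35.8, 0.722 and 115 against 586, 829, 1389 and 1776 CPM. Neither passed (5.25 ± 1.70, adjusted p = 0.177 and 4.50 ± 1.25, adjusted p = 0.0979), though all PTX values were above all vehicle values in both. Of 14 genes of the list 1 rose and 13 were above 0 (median 2.50, keratinocyte-scaled 3.73). Nfkbia was at 2634 plain CPM in fibroblasts and 2267 in immune cells of vehicle males, beside 2660 in the K5 sort of PTX males.

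Against vehicle males, some chaperone genes passed edgeR's test keratinocyte-scaled and none scaled over all genes. Hspa1a, an inducible Hsp70, was at 208, 364 and 234 CPM with vehicle and 1067, 1349.9, 872 and 1084 with PTX, without overlap. It missed the threshold scaled over all genes (2.02 ± 0.52, adjusted p = 0.0634) and passed keratinocyte-scaled (3.34 ± 0.52, adjusted p = 0.000763), in all 7 fits without 1 library. Hsp90ab1, the constitutive Hsp90, was at 2241, 3243 and 3343 against 2583, 2431, 2218 and 3794 CPM. It was at -0.09 (adjusted p = 0.991) scaled over all genes and 1.17 (adjusted p = 0.00748) keratinocyte-scaled, under the median of 1.28 for all genes. Its groups overlapped, and 1 of 7 fits lost the keratinocyte-scaled call (without vehicle male 1, adjusted p = 0.0649). Of 21 heat shock and unfolded protein genes none passed scaled over all genes (median 1.30), and 5 were higher keratinocyte-scaled (median 2.56, beside 1.28 for all genes). Hspa1a was at 1583 and 1414 plain CPM in fibroblasts and immune cells of vehicle males, above the 1023 of the K5 sort of PTX males.

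Of 23 oxidative stress genes 5 rose, 3 of them genes of other sorts, and the list median was -0.24 (1.06 keratinocyte-scaled). Fth1 and Ftl1, the chains of the iron store ferritin, were at 1572, 1984 and 1214 against 2731, 3634, 3155 and 4393 CPM and at 180, 220.1 and 204 against 659.7, 963, 707 and 733 CPM, without overlap (1.13 ± 0.26, adjusted p = 0.0286 and 1.93 ± 0.47, adjusted p = 0.0489). Ftl1 was named after its values were seen and lost its call in 7 of 7 fits without 1 library, with adjusted p up to 0.218 without vehicle male 1. Fth1 lost it in 6 of 7 fits without 1 library, with adjusted p up to 0.169 without vehicle male 3, and keratinocyte-scaled it was at 2.40 ± 0.27, adjusted p = 3.46e-05. In plain CPM, Fth1 was at 5511 in immune cells and 2597 in fibroblasts of vehicle males, beside 3261 in the K5 sort of PTX males. For Ftl1 these values were 2513, 654 and 718. The part of RNA from other cells in the 2 rises was not tested. Gpx3 and Sod3, secreted enzymes against peroxide and superoxide that are fibroblast-restricted here, and Hmox1, the heme oxygenase of macrophages that is immune-restricted here, were the other 3. Gpx3 was at 0.350, 0.361 and 0.0928 against 332, 553, 212 and 221 CPM (10.21 ± 1.86, adjusted p = 0.00540), lost in 1 of 7 fits without 1 library, with adjusted p up to 0.0669 without PTX male 2, Sod3 at 0.175, 0.542 and 0.371 against 266, 403, 167 and 107 (9.31 ± 2.01, adjusted p = 0.0198), lost in 5 of 7 fits without 1 library, with adjusted p up to 0.131 without PTX male 2, and Hmox1 at 0.350, 0.542 and 0.186 against 558, 105, 262 and 353 (9.77 ± 2.40, adjusted p = 0.0487), lost in 7 of 7 fits without 1 library, with adjusted p up to 0.189 without vehicle male 3. Of the genes that did not pass, the peroxiredoxin Prdx1 was at 679, 787 and 1044 against 413, 320.2, 420.2 and 317 CPM, lower in each PTX library (-1.19 ± 0.39, adjusted p = 0.187).

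B2m, the light chain of MHC class I, was at 373, 405 and 242 CPM with vehicle and 1865, 2176, 1623 and 2998 with PTX. It rose without overlap (2.67 ± 0.41, adjusted p = 0.00138, keratinocyte-scaled 3.93 (adjusted p = 3.19e-05)), and kept its call in all 7 fits without 1 library. Its level in vehicle females was 678 ± 313 CPM (SD, n = 4), a mean between those of the 2 groups. In plain CPM, B2m was at 2793 in immune cells, 808 in fibroblasts and 323 in the K5 sort of vehicle males. In the K5 sort of PTX males it was at 2022, and the part of RNA from other cells in this rise was not tested. Of 10 MHC class I genes tested B2m rose and 7 did not overlap (median 2.64, keratinocyte-scaled 3.82). Of 24 type I interferon genes 13 were tested and none passed, with a median of 7.81 (6.84 with genes at 0 in a group at their bound, 9.19 keratinocyte-scaled). The summed level of all 24 was 66.6 to 280.5 CPM with vehicle and 595 to 1158 CPM with PTX. Isg15, a ubiquitin-like protein induced by interferon, was at 0, 0 and 0.0929 against 24.5, 10.99, 25.9 and 13.8 CPM (adjusted p = 0.230). Of the 13, 3 were higher without overlap, beside 9.15% of all genes tested.

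The genes closest to the drug's own target did not pass. Of 17 tubulin and microtubule genes none was called (median -0.49, keratinocyte-scaled 0.83, against medians of 0.07 and 1.28 for all genes). Tubb5, a beta-tubulin of the kind paclitaxel binds, was at 879, 754 and 1737 CPM with vehicle and 705, 968, 871 and 487 with PTX (-0.57 ± 0.38, adjusted p = 0.612). Mapre1, which encodes the plus-end binding protein EB1, was at 243, 310.4 and 235 against 210.5, 275, 209.6 and 52.1 CPM. Both overlapped. Tubb6, named after its values were seen, was at 0.0876, 307 and 0.186 against 147, 297, 310 and 132 CPM, with 1 vehicle male as high as the PTX males.

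Division genes gave no call. Mki67, a marker of cycling cells, was at 92.6, 110 and 292 CPM with vehicle and 249, 394, 349 and 691 with PTX (1.35 ± 0.68, adjusted p = 0.370, keratinocyte-scaled 2.59 (adjusted p = 0.0551)). Top2a, the topoisomerase of dividing cells, was at 349, 584 and 451 against 15.7, 38.7, 117 and 234 CPM, lower in each PTX library (-2.19 ± 0.82, adjusted p = 0.230). Cdkn1a, the cell cycle inhibitor p21, named after its values were seen, was at 83.5, 64.5 and 222 against 476, 379.7, 314 and 574 CPM, higher in each PTX library (1.82 ± 0.86, adjusted p = 0.334). Of 23 mitosis genes and 19 DNA replication genes none passed (medians -0.56 and -0.73, keratinocyte-scaled 0.59 and 0.42). Of 24 p53 target and apoptosis genes Perp alone passed, as a fall (median 1.35, keratinocyte-scaled 2.44). Bax, a p53 target that opens the mitochondrial membrane, was at 56.7, 0.361 and 41.4 against 31.7, 49.6, 121 and 145 CPM, and Mdm2, the p53 ligase, at 181, 0.903 and 0.279 against 0.777, 69.4, 39.4 and 42.1.

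Genes through which keratinocytes could act on nerves were mostly sparse. Of 14 neurotrophic and axon guidance genes and 13 sensory channel and receptor genes tested none passed scaled over all genes, with medians of 0.97 and 1.26 (2.06 and 2.48 keratinocyte-scaled). Those tested were part of 27 and 23 genes found, so the low-count filter in part sets these medians. Ntn1, the guidance factor netrin 1, was at 0.175, 0 and 0.0928 CPM with vehicle and 189, 66.3, 161 and 57.6 with PTX, and is fibroblast-restricted here. From 3 counts with vehicle its ratio was 1199 (95% counting interval 410 to 5816), with adjusted p = 0.131 and 0.0318 keratinocyte-scaled. Trpv4, a channel for warmth and osmotic stress in keratinocytes, was at 72.0, 0.722 and 119 against 235, 202, 101.2 and 75.1 CPM, and Trpv3, another warmth channel, at 3.50, 214 and 0.0929 against 0, 0, 47.4 and 0. With vehicle alone, Trpv4 ran from 0.722 to 119 CPM. The groups overlapped for both channels and not for Ntn1.

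The genes that rose were led by those of cell types that a K5 sort should leave out. The 10 largest rises under the naming rule were Tnfaip6, Scara5, Csf3, Tek, Rce1, Has1, Cldn5, Fabp4, Gpr116 and Sele. Tnfaip6, Scara5 and Has1 are matrix or fibroblast genes and fibroblast-restricted here, as is Tek by the same rule. Tek, Cldn5, Gpr116 and Sele are genes of vessel walls, and Fabp4 is made by vessels and fat. Tnfaip6, Scara5, Tek and Rce1 had no count in vehicle males and were at least 612-, 579-, 383- and 333-fold higher from a floor of 3 counts per library. These bounds are for the group mean: Tnfaip6 was at 0.0971, 478, 70.9 and 334 CPM in the PTX males, and PTX male 1, with 1 count, was itself under the floor. Calls of Tnfaip6, Scara5, Tek, Cldn5 and Gpr116 were lost in 3 of 4 (in the other 3 it was not tested), 4 of 7, 7 of 7, 1 of 7 and 2 of 7 fits without 1 library, with adjusted p up to 0.124 and 0.202 (Tnfaip6 and Tek, without vehicle male 3) and 0.0976, 0.0704 and 0.0522 (Scara5, Cldn5 and Gpr116, without PTX male 2). Rce1, a protease that trims prenylated proteins, was at 202, 75.8, 127 and 75.7 CPM with PTX and at 148 ± 81.4 CPM (SD, n = 4) in vehicle females. Against the females it was at -0.30 (adjusted p = 0.999) and did not pass.

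Fibroblast genes were higher with PTX in all 18 cases tested, and 9 of them rose. Col1a2, a chain of collagen I, was at 1.31, 1.62 and 1.11 CPM in vehicle males and 3868, 1441, 2694 and 2317 CPM in PTX males. Pi16, a marker of a fibroblast state found across tissues, was at 0.350, 0.181 and 0.0928 against 631, 1035, 181 and 484 CPM, and Dpt, a matrix protein gene, at 0.175, 0.181 and 0 against 492, 540, 226 and 281. Of the 18, 16 did not overlap, and the median was 10.25 (10.14 with Mfap5 at its bound, 11.41 keratinocyte-scaled). Col1a2 rose by 10.89 ± 0.81, adjusted p = 1.60e-07 (edgeR), Pi16 by 11.34 ± 1.58, adjusted p = 0.000625 and Col6a2 by 10.12 ± 1.67, adjusted p = 0.00241, each in all 7 fits without 1 library. The summed level of the list was 802 to 1380 CPM with vehicle and 20170 to 27160 with PTX. With vehicle it was mostly Dcn, the proteoglycan decorin, and Sparc, while Mfap5 had no count. Gsn, the actin-severing gelsolin gene, named after its values were seen, was at 831, 1352 and 986 against 7277, 14274, 6723 and 9037 CPM (3.14 ± 0.46, adjusted p = 0.000771).

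Of 13 endothelial genes tested 10 rose, the largest share of any list with at least 5 tested genes. Plvap, a protein of vessel pores named after its values were seen, was at 0.438, 0.722 and 0.464 CPM with vehicle and 1980.5, 1458, 919 and 1325 with PTX. Selp and Sele, the selectins on which leukocytes roll, were at 0.175, 0 and 0.279 against 534, 473, 839 and 984 and at 0, 0 and 0.279 against 615, 334, 525 and 792 CPM. All vehicle libraries were under 1 CPM and all PTX libraries above 300 CPM. Plvap rose by 11.34 ± 0.75, adjusted p = 6.60e-08 (edgeR), Selp by 11.94 ± 1.25, adjusted p = 1.90e-05 and Vwf, the clotting protein von Willebrand factor, by 10.33 ± 1.73, adjusted p = 0.00270, each in all 7 fits without 1 library. For Sele, with 3 counts over the vehicle males, the ratio of counts was 5176 (95% counting interval 1771 to 25099). Of the 13, 11 did not overlap (median 11.52, 11.09 with the 2 genes at 0 at their bound, keratinocyte-scaled 12.82), and the summed level was 0.964 to 550.3 CPM with vehicle and 3623 to 5107 with PTX. The upper vehicle value is that of vehicle male 2, where Pecam1 was at 380.1 CPM against 0.175 and 0.371 in the other 2. In plain CPM, the mean of Sele was 536 in the K5 sort of PTX males, and among the 6 groups of the other sorts its highest mean was 36.9, in immune cells of vehicle males. For Plvap these means were 1336 and 92.5, in the same 2 groups. Pericyte and smooth muscle genes showed 2 of 11 that rose, Des and Rgs5 (median 6.55). Des, desmin, was at 0.263, 0.361 and 0.186 against 139, 181, 29.0 and 718 CPM and lost its call in 5 of 7 fits without 1 library, with adjusted p up to 0.233 without PTX male 4, and Rgs5 was at 0.526, 1.26 and 0.650 against 87.9, 468, 169 and 217 and lost it in 7 of 7 fits without 1 library, with adjusted p up to 0.231 without PTX male 2.

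Some macrophage and antigen presentation genes rose as well, 3 of 15 and 4 of 7 tested. Lyz2, the lysozyme of myeloid cells, was at 15.6, 26.7 and 25.3 CPM with vehicle and 611, 714, 1290.3 and 1387 with PTX (5.47 ± 0.77, adjusted p = 0.000625). Pf4, a chemokine of platelets and tissue macrophages, was at 1.58, 1.26 and 1.02 against 507, 673, 311 and 273 CPM (8.40 ± 1.34, adjusted p = 0.00188). Cd74, the invariant chain of MHC class II, was at 6.66, 14.99 and 11.8 against 129, 1662, 962 and 981 CPM (6.39 ± 0.94, adjusted p = 0.000771). All PTX values were above all vehicle values for the 3, while H2-Eb1 and H2-Aa, chains of MHC class II, were at 7.28 and 6.70 CPM in PTX male 1, within the vehicle range, and above 400 CPM in the other 3. Of 15 macrophage and monocyte genes 3 rose (Lyz2, Pf4 and C1qb, the last lost in 3 of 7 fits without 1 library, with adjusted p up to 0.152 without PTX male 4), with a summed level of 47.6 to 58.0 CPM with vehicle and 1768 to 4503 with PTX. Of 7 genes of MHC class II and of dendritic or Langerhans cells 4 rose (Cd74, H2-Ab1, H2-Eb1 and H2-Aa), the last pair losing their calls in 4 and 5 of 7 fits, with adjusted p up to 0.0862 and 0.131 without PTX male 2. Cd207, which marks Langerhans cells of the epidermis, had no count in vehicle males and was at 0, 96.4, 29.8 and 0 CPM in the PTX males. Of 11 pan-immune genes Laptm5 and Ptprc rose. Ptprc, which encodes CD45, was at 0.789, 0.542 and 0.464 against 240, 236, 149 and 177 CPM (8.35 ± 2.05, adjusted p = 0.0481, lost in 7 of 7 fits without 1 library, with adjusted p up to 0.237 without vehicle male 3), and Laptm5 lost its call in 5 of 7 fits without 1 library, with adjusted p up to 0.206 without PTX male 4. None of 6 neutrophil, 3 lymphocyte and 3 mast cell genes passed. The neutrophil gene Ngp was at 18.9, 23.3 and 21.3 against 15.8, 60.4, 22.1 and 40.3 CPM, with overlapping groups.

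Genes of muscle and of mast cells were high in some PTX libraries and near 0 in others. Acta1, the actin of skeletal muscle, was at 1.75, 0.181 and 0.279 CPM with vehicle and 1.26, 807, 1.12 and 1331 with PTX (9.44 ± 2.22, adjusted p = 0.0359), a call lost in 5 of 7 fits without 1 library, with adjusted p up to 0.209 without PTX male 4. Ckm, muscle creatine kinase, followed the same 2 libraries at 0, 359, 0.0800 and 248 CPM. PTX males 2 and 4 were high in both genes, and PTX males 1 and 3 were at the level of vehicle males. Cma1 and Cpa3, proteases of mast cells, were at 159 and 121 CPM in PTX male 2 and at most 0.142 in the other 3. Of 10 Schwann cell genes, 5 melanocyte and Merkel cell genes and 3 adipocyte genes, Fabp4 alone passed. Sox10, a factor of Schwann cells and melanocytes, was at 4.21, 0.903 and 0.743 against 35.4, 0.517, 0.0800 and 0.285 CPM. Adipoq, which marks fat, had no count in any of the 7 libraries. Genes of other cell types were higher in the same 4 libraries in which the share of keratinocyte RNA was lower, and their part in the falls of keratinocyte genes was not tested beyond the keratinocyte scaling above.

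**Figure D4:**
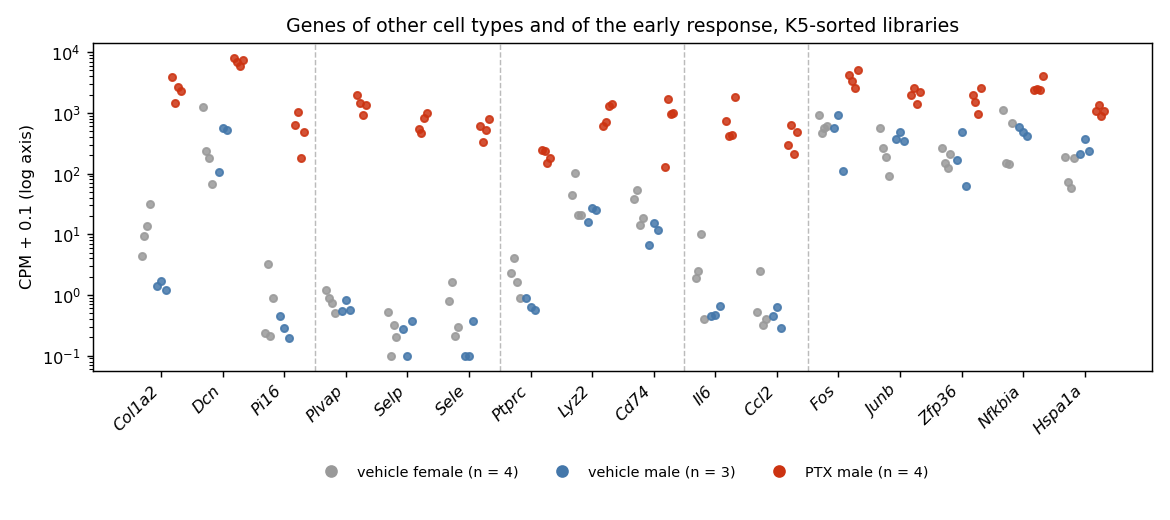
CPM (log axis, 0.1 added) of fibroblast, endothelial, immune, cytokine and early response genes, 1 point per K5-sorted library of vehicle females (n = 4), vehicle males (n = 3) and PTX males (n = 4). All PTX points lie above all vehicle male points for each gene shown, and the gap is narrower for the early response genes on the right, which vehicle libraries also expressed.

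**Figure D5:**
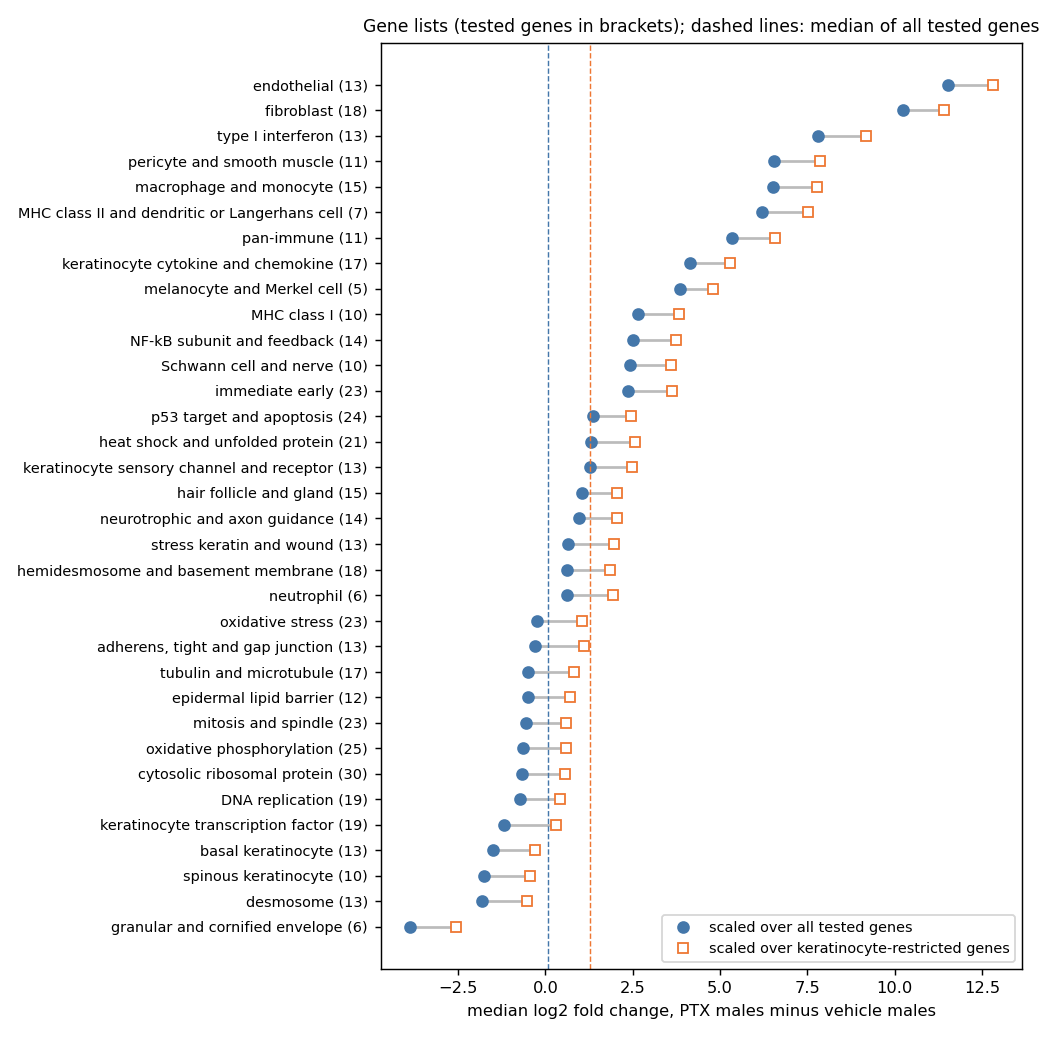
Median log2 fold change, PTX males minus vehicle males, of each gene list with at least 5 tested genes (number in brackets), scaled over all tested genes (filled) and over keratinocyte-restricted genes (open); dashed lines mark the median of all tested genes, 0.07 and 1.28. Endothelial (11.52) and fibroblast (10.25) genes stand at the top, and basal, spinous, desmosomal and granular keratinocyte genes at the bottom, below 0 under both scalings, while ribosomal, respiratory, mitotic, replication, tubulin, junction, lipid, transcription factor and oxidative stress lists turn from below to above 0.

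Against vehicle females, a comparison that shares the PTX libraries, 144 genes rose (1.32%) and 26 fell (0.238%). The log2 fold changes against females and males were -3.09 and -3.55 for Krt10, -2.06 and -2.48 for Perp, -1.36 and -1.49 for Krt5, 7.84 and 10.93 for Il6, 2.59 and 2.83 for Fos and 7.44 and 10.89 for Col1a2. All 6 passed against both vehicle groups (edgeR adjusted p up to 0.0257 against females). Of 127 named genes tested, 11 that were called against vehicle males did not pass against females, and Rce1 turned direction. Among the 11, Cst6 was at -3.24 (adjusted p = 0.133) against females, Them5 at -1.76 (0.200), Atp5b at -0.55 (0.332) and Hmox1 at 5.04 (0.180). Hspa1a passed against females (3.14, adjusted p = 0.00127). The differences between the 2 vehicle groups were not tested here.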

How the data were processed

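Counts of reads per gene were deposited by the authors for each library, 22609 gene symbols in each table, and entered as deposited. Per the labels' protocols, libraries were TruSeq stranded mRNA, read as single 50-base reads. Per the submitters' processing notes, bcl2fastq, TopHat2, HTSeq and mm9 were used. Versions, annotation and counting strand were not given in the sources used here. Lines of the tables that name no gene (no feature, ambiguous, not unique) were left out.

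The 11 K5-sorted libraries were fitted together with edgeR 4.0.16 in R 4.3.3 (filterByExpr, TMM scaling, quasi-likelihood test, 1 coefficient per group, Benjamini-Hochberg adjustment over 10939 genes). CPM in the text are TMM-scaled, and plain CPM divide by the library total. Restricted genes had a count in at least 3 of 4 vehicle females, and 0.5 CPM was added before the 8-fold comparison. Keratin ratios had 1 CPM added. The SE given with a fold change is its absolute log2 value over the square root of the test's F statistic. It is an approximation, and a rough one for genes near 0 in a group. Alternatives used limma 3.58.1 (voom) and DESeq2 1.42.0. The code of the fit was also run on counts simulated from the fit's own model. Such a run cannot show how well that model holds for these libraries. Counting intervals and floors leave out all other error.

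The members and the 39 gene lists were chosen with earlier results of these data known. Genes named were the 10 largest changes called in each direction (at least 5 CPM in the higher group, no overlap), the same within keratinocyte-restricted genes filled up to 5 by lowest p, up to 4 called members per list or the 2 most abundant, and markers. Bax, Ccl27a, Cxcl1, Cxcl14, Hspg2, Icam1, Isg15, Mdm2, Mfap5, Myc, Prdx1, Sparc, Tnfaip3 and Trpv3 are list members named after their values were seen. Values of some list members are not reported here.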

Additional observations from a re-analysis of the deposited data

Results flagged for a closer look

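In 11 of 143 groups of 4 values checked, 1 library lay apart from the other 3 by more of the group's range than Dixon's 95% critical value for 4 values. Chance passes that value in about 1 group in 20 where values are normally distributed. For skewed values such as CPM it can do so more often, so the 11 are no measure of excess. The 11 are CPM in PTX males, since genes were checked there alone and vehicle males, with 3 libraries, could not be. In PTX male 4, Nfkbia was at 4073 against 2386 to 2465 in the other 3, Laptm5, a lysosomal protein of blood cells, at 687 against 142 to 233, Krt8, a keratin of simple epithelia and Merkel cells, at 202 against 0.517 to 17.9, and Lars2 at 2682 against 1732 to 1842. Rpl8 was lowest there, at 1076 against 1573 to 1618. In PTX male 2, the mast cell genes Cpa3 and Cma1 were at 121 and 159 against at most 0.142. In PTX male 3, Kit, the receptor of mast cells and melanocytes, was at 128 against at most 3.49 and the T cell gene Cd3e at 19.7 against at most 2.42. In PTX male 1, Sox10 was at 35.4 against at most 0.517 and Dct, an enzyme of pigment cells, at 8.16 against 0. Calls of Nfkbia, Laptm5 and Rpl8 without each library are given with their results above.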

How the results depend on the processing

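The number of calls depended on the test more than on the scaling between RLE and TMM. DESeq2 called 1479 genes higher and 260 lower, limma voom with quality weights 287 and 52, and RLE scaling 114 and 33. DESeq2 shared 121 of the 126 higher and 27 of the 33 lower calls, and voom 82 and 17. Vehicle males and females together gave 307 higher. Keratinocyte-scaled, 329 were higher and 5 lower. Among keratinocyte-restricted genes the higher calls were 20 with DESeq2 and 1 keratinocyte-scaled or with 4 in place of 8 times as the limit, and the lower calls 65 with DESeq2, 4 keratinocyte-scaled and 15 in a fit of the 2 groups alone. Higher calls among fibroblast-restricted genes were 239 (DESeq2), 89 (voom), 93 (keratinocyte-scaled) and 102 (all vehicle together), and among immune-restricted genes 249, 50, 62 and 73. With all vehicle libraries together, which include the females that chose the genes, the 3 shares differed by -9.18, 7.67 and 2.96 percentage points (exact permutation p = 0.00606 each, 0.00909 adjusted over 6 values). In the keratinocyte-scaled fit, added after seeing the data, lower calls were 10 at 4 times and 2 in the fit of 2 groups, of which 8 and 2 were keratinocyte-restricted. Higher calls were 507 against vehicle females, and keratinocyte-restricted higher calls 0 at 4 times and 2 against females. The causes were not tested.

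Leaving out 1 library at a time gave 65 to 100 genes higher (lowest without vehicle male 3, then 68 without PTX male 2, 72 without PTX male 4 and 82 without PTX male 3) and 18 to 23 lower (18 without PTX male 3, 19 without PTX male 2 or vehicle male 3, 21 without vehicle male 2). Keratinocyte-restricted calls were 0 to 0 higher and 14 to 18 lower, fibroblast-restricted 25 to 34 and immune-restricted 12 to 23 higher. The shares differed by -9.01 to -8.45, 7.32 to 7.75 and 2.69 to 3.02 points, and the ratio of the keratin pairs by -1.15 to -0.60. Keratinocyte-scaled, 171 to 283 were higher (171 without vehicle male 3) and 0 to 6 lower (0 without vehicle male 3), with 0 to 6 keratinocyte-restricted ones lower and 0 to 0 higher. Of values past the threshold under either setting, directions turned for Rce1 against females (-0.30, adjusted p = 0.999), and keratinocyte-scaled for Hsp90ab1 (1.17, adjusted p = 0.00748), Rpl8 (0.17, 0.888) and Atp5b (0.12, 0.917), as that scaling adds about 1.21 to each gene and turns smaller falls. With the replicate number as a block, 95 genes were higher and 24 lower, of which 16 immune-restricted ones were higher. Deviations of same-numbered PTX and vehicle males correlated at -0.01, 0.02 and -0.01, as near 0 as those of differently numbered ones. With replicates so far apart, these values cannot decide whether the numbers pair the samples.

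Replicates were far apart, and a missed threshold does not show equal levels. Reads with no unique place were not counted. Separate mice are not stated.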
